A study of Mus musculus with 18 samples.

Results

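The comparison described here sets nicotinamide (NAM) against S-adenosyl methionine (SAM) in mouse kidney tubular epithelial cells that received no transforming growth factor β (TGFβ). Its members are 6 of the 18 libraries of the study, 3 from cells given 1 mM NAM and 3 from cells given 0.5 mM SAM, chosen by their titles and library numbers, and all genes were compared. The cells, im-TEC, are a single conditionally immortalized line carrying a large T antigen of SV40 that works at a low temperature and that interferon-γ induces. For 7 days before seeding they were held at 37 °C without interferon-γ, and every group was then cultured for 48 h. The other groups used here are untreated control cells, cells given 10 ng/mL TGFβ alone, and cells given TGFβ with NAM or with SAM, each with 3 libraries. The 2 compounds differ in dose as well as in kind, so the comparison is between these 2 supplements as given, not at equal concentration.

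NAM and SAM are the substrates of nicotinamide N-methyltransferase (NNMT), the enzyme the study is about. NNMT moves the methyl group of SAM onto NAM, which leaves 1-methylnicotinamide and S-adenosyl homocysteine. NAM is also the precursor that the NAD salvage pathway returns to NAD, and it inhibits sirtuins. SAM is the general methyl donor of the cell and the source of the aminopropyl groups of polyamines. In the kidney, tubular cells that take on matrix, contractile and inflammatory gene programmes are a known feature of fibrosis.

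RNA was measured as QuantSeq reads, which sample each transcript near its 3′ end, so values compare a gene between libraries and not genes with each other. Values are CPM, counts scaled to a common library size with trimmed-mean (TMM) factors, given by replicate number or as mean ± SD (n = 3). A difference is the log2 value of NAM minus SAM ± SE, and it passed the test where the adjusted p of edgeR's quasi-likelihood test was under 0.05. The SE was taken back from that test, as the size of the difference over the square root of its F value, and is approximate. Reads in genes ran from 6776196 to 7717626 in the NAM libraries and from 5885758 to 6598108 in the SAM libraries. Genes with a read numbered 15723 to 16379 in NAM and 15282 to 15470 in SAM, and mitochondrially encoded genes took 7.99% to 9.05% and 10.1% to 10.5% of the reads. NAM replicate 3 stood apart from the other NAM libraries on the second component of the 9 libraries without TGFβ, at -38.1 against 4.39 and 7.67. SAM replicates 2 and 3 lay at opposite ends of the third component, and the treatment tags of both conflict with their titles. The library numbers skip before the SAM libraries, so separate preparation and SAM cannot be told apart. Tubule markers gave 2094 to 2323 CPM in sum in NAM and 2170 to 2265 CPM in SAM, with Aqp1, Pax2, Pax8, Cdh16 and Lrp2 present, whereas Epcam and Umod had no read and Cdh1 and Slc34a1 had at most 6 reads in a group. Nothing in the labels says that the libraries of a group came from separate cultures, so p-values measure the spread between libraries.

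NAM and SAM differed in 1937 of 13469 tested genes, or 14.4%. Of these, 1054 (7.83%) were higher and 883 (6.56%) lower in NAM, and 220 and 116 of them by at least 2-fold. NAM against control gave 1 gene past edgeR's test, the alcohol dehydrogenase Adh7 (722 genes at an unadjusted p under 0.05). SAM against control gave 1591 genes (3258 at an unadjusted p under 0.05). Both of those comparisons use the same control libraries. For the 1054 genes higher in NAM, the median difference from control was 0.08 for NAM and -0.50 for SAM, and the control mean lay nearer to NAM in 967 of them (91.7%). For the 883 lower genes the medians were -0.10 and 0.45, and control was nearer to NAM in 763 (86.4%), against 65.8% of all tested genes. The count of genes past the test rests on the libraries named above. It was 1272 without NAM replicate 3 and 639 without SAM replicates 2 and 3, of which the latter leaves a single SAM library, assumed to vary like the other groups. The genes were also read through 33 lists, each counted for members higher and lower in NAM. Of these 66 counts, 31 moved by over 1.5 times when 1 library was left out, 27 of them counts of 5 or fewer, and the others are named below. Without SAM replicates 2 and 3 together, 40 of them moved by over 1.5 times.

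**Figure D1:**
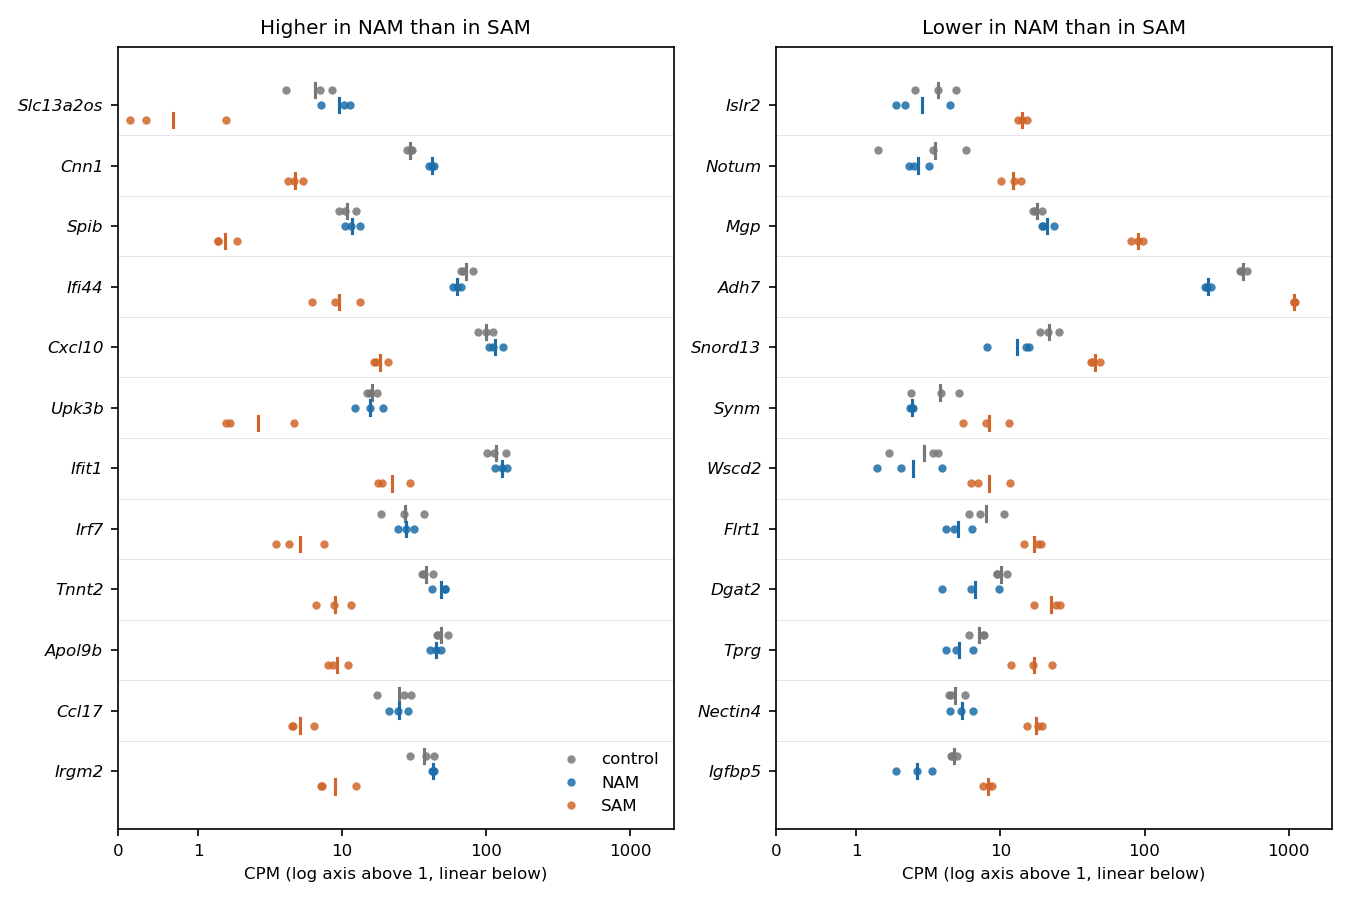
CPM in each library (dots) and group means (ticks) of control, NAM and SAM for the 12 genes highest in NAM and the 12 lowest in NAM by log2 difference, on an axis that is logarithmic above 1 CPM and linear below. In every gene all 3 NAM libraries lie on 1 side of all 3 SAM libraries, which the choice of genes required, and control lies mostly beside NAM.

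The study's enzyme and its 2 substrate pathways came first. Nnmt (ENSMUSG00000032271, chr9:48591877-48605153, minus strand, GRCm38) stood at 31.3, 32.5 and 33.1 CPM in NAM, 21.9, 18.4 and 17.8 CPM in SAM and 27.6, 33.2 and 30.2 CPM in control. All NAM libraries were above all SAM libraries, and SAM also lay below control (log2 -0.65, adjusted p = 0.0075). The difference was 0.74 ± 0.17, adjusted p = 0.00164, and it did not pass without SAM replicates 2 and 3 (adjusted p = 0.202). With TGFβ the same comparison gave 0.57 (adjusted p = 0.0292).

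Of 23 tested genes of NAD metabolism, 2 were higher and 1 lower in NAM, a share of 13.0% against 14.4% of all tested genes, and the median was 0.06 against 0.00 for all genes. Beside Nnmt, the higher gene was Bst1, an ectoenzyme that consumes NAD and releases nicotinamide. It stood at 289, 294 and 281 CPM in NAM and 157, 154 and 162 CPM in SAM, with control at 267, 286 and 259.8 CPM (0.87 ± 0.09, adjusted p = 5.37e-10). Bst1 overlaps Fbxl5 on the other strand, and without a stated strand setting their reads cannot be told apart. Nampt, the rate-limiting enzyme of NAD salvage from nicotinamide, was lower in NAM, at 126, 122 and 106 CPM against 176, 179.6 and 198 CPM in SAM (-0.65 ± 0.11, adjusted p = 2.7e-05). Control, at 132, 121 and 142 CPM, lay near NAM. None of the tested sirtuins, PARP enzymes or NMNAT enzymes passed: Sirt1 differed by 0.08 (adjusted p = 0.90) and Sirt3 by -0.61 (adjusted p = 0.16).

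In the methionine cycle and polyamine list, 4 of 29 tested genes were higher and 2 lower in NAM (20.7% past the test), with a median of 0.02. Mat2a, which makes SAM from methionine and ATP, stood at 255, 268 and 287 CPM in NAM, 185, 174 and 179 CPM in SAM and 253, 266 and 269 CPM in control. The SAM libraries were the low ones (0.59 ± 0.09, adjusted p = 3.4e-06), and Mat2a shares bases with the antisense transcript Particl. Mtr, the methionine synthase that remethylates homocysteine, was lower in NAM, at 33.1, 36.4 and 31.8 CPM against 53.2, 48.9 and 54.5 CPM (-0.63 ± 0.15, adjusted p = 0.00204). Azin1, which relieves ornithine decarboxylase of its inhibitor, differed by 0.47 ± 0.10, adjusted p = 0.00058, and Slc3a2, the heavy chain of amino acid transporters, by -0.38 ± 0.08, adjusted p = 0.00102. The calls of Mtr, Azin1 and Slc3a2 were lost without SAM replicates 2 and 3, when 1 member was higher and none lower.

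Among 10 tested methyltransferases of small molecules, Nnmt was higher in NAM and 3 were lower. The 3 lower members became 1 without SAM replicate 3. Mettl7a1 differed by -0.73 ± 0.17, adjusted p = 0.00198. Inmt, the indolethylamine methyltransferase, stood at 41.9, 54.9 and 36.1 CPM in NAM and 79.3, 61.6 and 77.9 CPM in SAM (-0.72 ± 0.20, adjusted p = 0.0115), and its call was lost when any library but NAM replicate 2 or SAM replicate 2 was left out. In the histone and DNA methylation list 3 of 35 genes were higher and 5 lower (22.9% past the test, median -0.21), with Setd7 higher at 0.49 ± 0.10, adjusted p = 0.000451 and Kdm6b, a demethylase of histone H3 lysine 27, lower at -0.68 ± 0.17, adjusted p = 0.00405. The lower Suz12 and Kmt2d differed by -0.43 and -0.50, and the 5 lower calls fell to 2 without NAM replicate 3 and to 0 without SAM replicates 2 and 3. The 3 higher became 1 without SAM replicate 3.

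**Figure D2:**
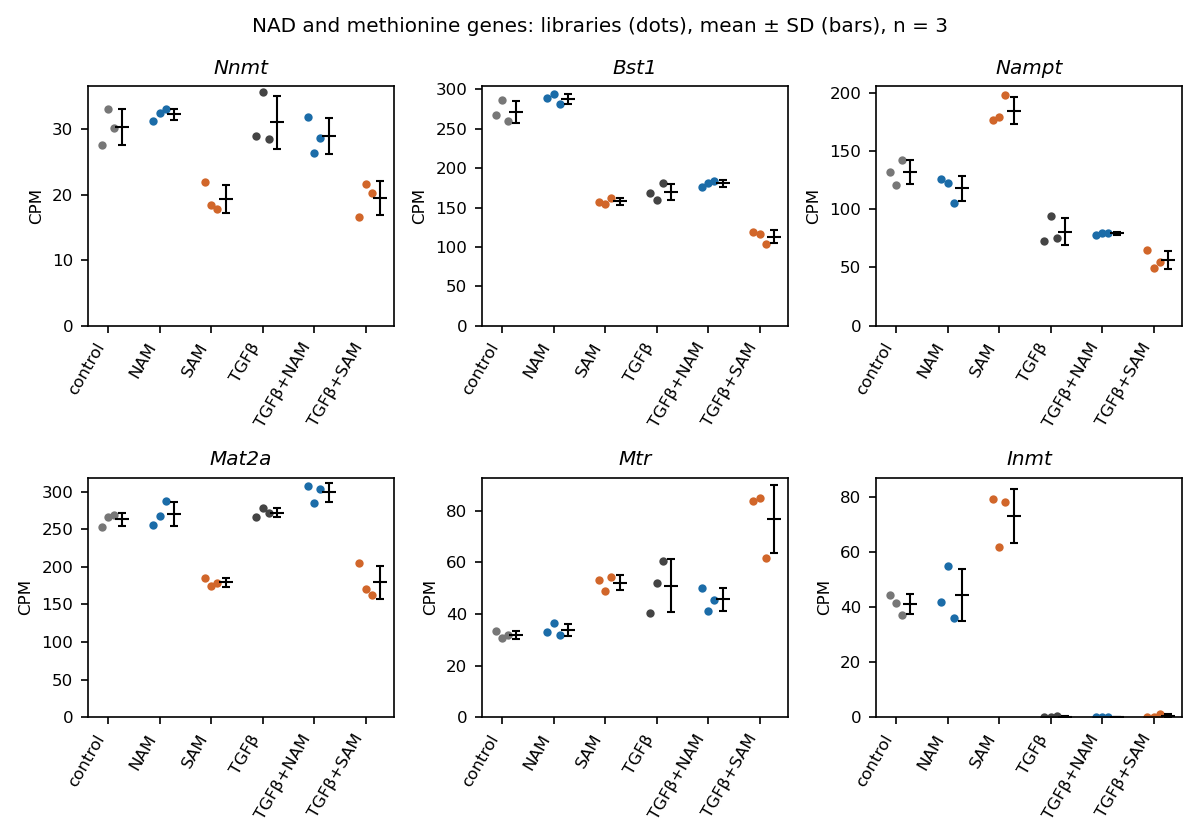
CPM of 6 NAD and methionine genes in the 18 libraries, by group (dots), with mean ± SD (bars, n = 3). Nnmt, Bst1 and Mat2a are lowest where SAM was given, with and without TGFβ, Mtr is highest there, and Nampt changes its order between NAM and SAM when TGFβ is present.

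Of the lists with at least 5 tested members, the interferon response had the largest median difference. Interferon-stimulated genes are switched on by interferon receptors through STAT2, IRF9 and other interferon regulatory factors, and include antiviral effectors, guanylate-binding proteins and chemokines. Of 52 tested members, 41 were higher in NAM and none lower, and the median difference was 1.23 with an interquartile range of 0.69 to 1.86. Without SAM replicates 2 and 3 the count was 35, and without any single library it stayed between 40 and 42. NAM against control had a median difference of 0.01 over the same members.

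Cxcl10 (ENSMUSG00000034855, chr5:92346638-92348889), a chemokine for T cells, stood at 105, 112 and 131 CPM in NAM, 16.7, 20.9 and 17.1 CPM in SAM and 112, 87.1 and 100.3 CPM in control. The means of NAM and SAM differed 6.35-fold (2.67 ± 0.12, adjusted p = 3.71e-19), with no overlap, which the choice of the 12 largest differences required. Ifi44, an interferon-induced protein, stood at 67.2, 63.0 and 59.0 CPM in NAM, 8.96, 13.3 and 6.21 CPM in SAM and 80.5, 66.5 and 69.4 CPM in control (2.72 ± 0.14, adjusted p = 6.81e-18). Ifit1, which binds viral RNA that lacks cap methylation, stood at 129.7, 140.3 and 114 CPM in NAM, 29.5, 18.9 and 17.8 CPM in SAM and 138, 101 and 114 CPM in control (2.53 ± 0.16, adjusted p = 9.82e-16). In these 3 genes the SAM libraries were low and control and NAM lay together. Rtp4, whose product chaperones receptors and is induced by interferon, stood at 100.2, 89.8 and 98.2 CPM in NAM and 28.9, 20.5 and 22.8 CPM in SAM (2.00 ± 0.13, adjusted p = 3.21e-15), and it overlaps Masp1. Outside the list rule, 3 more interferon-induced genes were among the 12 with the largest differences. Irf7, a transcription factor of type I interferon production, stood at 27.6, 24.5 and 31.4 CPM in NAM and 3.49, 7.50 and 4.31 CPM in SAM. Apol9b, an apolipoprotein L, stood at 44.8, 48.8 and 40.4 CPM and 8.66, 10.9 and 7.93 CPM, and Irgm2, a GTPase, at 42.1, 43.0 and 43.2 CPM and 12.5, 7.19 and 7.24 CPM. Irf7 overlaps Phrf1, Apol9b has a close paralog in Apol9a, and Irgm2 overlaps Igtp, so their reads may be shared.

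Among further members, Irf9, a DNA-binding partner of STAT2, differed by 0.81 (adjusted p = 3.45e-06). Stat2 (0.45, adjusted p = 0.0727) and Irf1 (0.30, adjusted p = 0.0682) did not pass. Isg15, a ubiquitin-like modifier, differed by 1.90 (203 CPM in NAM, 54.1 in SAM), and B2m, the light chain of class I antigen presentation, by 0.40. Of the 11 members that did not pass, Ifit3, Tap1 and Ifit2 had values below 0, at -0.04, -0.04 and -0.32. Both Ifit2 and Ifit3 belong to the family of Ifit1, and Ifit3 stood at 60.2, 57.0 and 57.6 CPM in NAM and 64.2, 60.5 and 54.5 CPM in SAM. Ifit3 and Ifit3b are near-identical copies, so how reads were divided between them is uncertain.

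The core letters of the interferon-stimulated response element (ISRE), GAAANNGAAA, were searched on both strands in RefSeq promoters (GRCm38.p6, 250 bases before to 50 after a start site). They occurred in 3.99% of 27025 genes with a promoter in the table and in 3.64% of 9296 tested genes with a promoter. The share was 6.96% of 747 genes higher in NAM, 2.99% of 670 lower genes, and 16.5% of 127 genes higher by at least 2-fold. The 747 genes include the 29 higher members of the interferon list with a promoter, of which 18 had a match (62.1%). These 18 are among the 52 higher genes with a match, so the share of the higher genes is not separate from that list. In the interferon list the share was 55.3% of the 38 tested members with a promoter. The matches below show where the letters lie and what surrounds them, in genes that differed and in Ifit3, which did not pass the test without TGFβ, and the letters in common come from the search. Capitals mark the match, which reads TTTCNNTTTC where it lies on the opposite strand, and the position of its first base is counted from the start site.
Cxcl10, chr5:92349078-92349117, minus strand, position -213: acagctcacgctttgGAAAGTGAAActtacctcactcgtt
Ifit1, chr19:34640770-34640809, plus strand, position -104: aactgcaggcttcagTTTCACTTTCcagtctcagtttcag
Ifit1, chr19:34640789-34640828, plus strand, position -85: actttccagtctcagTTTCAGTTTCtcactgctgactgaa
Isg15, chr4:156200866-156200905, minus strand, position -72: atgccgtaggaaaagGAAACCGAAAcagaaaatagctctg
Irgm2, chr11:58214898-58214937, plus strand, position -64: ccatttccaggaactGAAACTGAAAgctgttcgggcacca
Ifit3, chr19:34583392-34583431, plus strand, position -122: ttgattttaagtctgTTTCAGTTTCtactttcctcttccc
The Ifit1 match at -85 and the Ifit3 match at -122 have the same 10 letters, and the first gene passed the test between NAM and SAM without TGFβ whereas the second did not. Isg15 has 2 further matches that overlap the one shown. Ifi44 and Irf7 have no match in this window.

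Contractile and matrix genes were among the lists with the next largest medians. Of 31 tested mesenchymal and contractile genes, 17 were higher and 2 lower, with a median of 0.58. Cnn1, the calponin of smooth muscle thin filaments, stood at 40.0, 43.3 and 42.3 CPM in NAM, 5.32, 4.22 and 4.66 CPM in SAM and 30.7, 30.2 and 28.2 CPM in control. Its means differed 8.81-fold (3.14 ± 0.18, adjusted p = 1.65e-16). The SAM libraries were low, and NAM lay above control by 0.49, which did not pass (adjusted p = 0.571). Acta2, smooth muscle actin, stood at 101, 119 and 104 CPM in NAM and 59.7, 48.0 and 43.4 CPM in SAM (1.10 ± 0.10, adjusted p = 1.45e-10), and S100a4 at 411, 442 and 497 CPM and 113, 149.7 and 141 CPM (1.74 ± 0.10, adjusted p = 9e-17). Tnnt2, the troponin T of cardiac muscle, was not on the list but among the 12 largest differences, at 42.2, 51.5 and 52.0 CPM in NAM, 11.5, 8.75 and 6.55 CPM in SAM and 36.9, 42.8 and 35.6 CPM in control (2.43 ± 0.15, adjusted p = 1.5e-15). All of these were at least 2-fold apart with no overlap between the libraries, which the choice of Cnn1 and Tnnt2 required. Acta2 and S100a4 were chosen by their small p, as was S100a6, which differed by 0.63 ± 0.07, adjusted p = 2.98e-09. Most transcription factors of the list did not pass: Snai1 differed by 0.03, Zeb1 by 0.15 and Srf by 0.18, none past the test, and Zeb2 was lower in NAM by 0.48 (adjusted p = 0.043). The CArG box, the motif of serum response factor, was found by its consensus in 3 of 15 promoters of the higher members (20.0%), in the same share of all tested members (5 of 25) and in 1.81% of all genes. Cnn1, Acta2 and Tnnt2 have no match in this window. The match in Myl9, a myosin light chain, is shown as the example, with its letters in capitals.
Myl9, chr2:156775288-156775327, plus strand, position -161: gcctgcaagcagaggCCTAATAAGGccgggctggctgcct

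Of 18 tested TGFβ targets, 9 were higher in NAM and none lower, with a median of 0.61. Ccn2, connective tissue growth factor, stood at 506, 528 and 525 CPM in NAM and 187, 239 and 217 CPM in SAM (1.28 ± 0.09, adjusted p = 8.74e-15). Pmepa1, a feedback inhibitor of TGFβ signalling, stood at 209.9, 212 and 215 CPM and 97.7, 101 and 107 CPM (1.06 ± 0.09, adjusted p = 2.33e-11). In both genes NAM lay within 0.3 log2 units of control and SAM below both. The inhibitory Smad7 (-0.13) and the ligands Tgfb1 (-0.34) and Tgfb2 (0.00) did not pass. Without SAM replicates 2 and 3 the count was 5. In the BMP and ID list, whose genes answer the related bone morphogenetic proteins, none of 12 was higher in NAM and 4 were lower. They were Id1 (-0.31 ± 0.09, adjusted p = 0.0112), Id2 (-0.57 ± 0.09, adjusted p = 1.11e-05), Id4 (-0.90 ± 0.18, adjusted p = 0.000283) and Atoh8 (-1.12 ± 0.23, adjusted p = 0.000551). The count was 2 without SAM replicates 2 and 3.

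Of 32 tested matrix genes, 19 were higher in NAM and 1, Vcan, lower, with a median of 0.65. Loxl1, a collagen crosslinking enzyme, stood at 174, 178 and 162 CPM in NAM and 70.9, 72.4 and 71.4 CPM in SAM (1.26 ± 0.10, adjusted p = 7.3e-13). Postn, periostin, stood at 50.6, 57.4 and 51.7 CPM in NAM and 20.8, 19.7 and 26.4 CPM in SAM (1.26 ± 0.11, adjusted p = 5.06e-11), and control, at 66.4, 63.2 and 65.0 CPM, was above both. Fn1, fibronectin, differed by 0.66 ± 0.07, adjusted p = 7.32e-09 and Sparc, a collagen-binding glycoprotein, by 0.61 ± 0.07, adjusted p = 2.26e-08. The interstitial collagen Col1a1 was scarce, at 5.37, 6.04 and 5.86 CPM in NAM and 0.911, 1.88 and 1.55 CPM in SAM (1.99 ± 0.31, adjusted p = 1.09e-05). Col4a4 and Loxl2 were scarcer still in SAM, where the mean was 0.83 and 0.32 CPM, and Tnc did not differ by more than its error (0.00, adjusted p = 0.99). Col1a1 is also 1 of 10 fibroblast markers, whose summed level was 5.37 to 7.11 CPM in NAM and 1.21 to 2.03 CPM in SAM. Pdgfra, Thy1, Lum and Dpt had no read in either group, and Pdgfrb had 11 reads in NAM and none in SAM. In bulk RNA, fewer cells of a type and less RNA per cell cannot be told apart.

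Targets of YAP, the Hippo pathway's coactivator, were higher in NAM in 9 of 18 and lower in 2, with a median of 0.30. Beside Ccn2 they included Ccn1 (0.72 ± 0.07, adjusted p = 4.66e-10), Fstl1 (1.11 ± 0.08, adjusted p = 2.89e-14) and Ankrd1 (0.64 ± 0.08, adjusted p = 3.61e-08). Of 22 genes of tubular injury, 12 were higher and 2 lower (median 0.50). Complement C3 stood at 65.4, 66.9 and 47.1 CPM in NAM and 22.0, 12.3 and 20.9 CPM in SAM (1.70 ± 0.24, adjusted p = 1.64e-06), and clusterin, Clu, at 101, 107 and 98.0 CPM and 58.2, 57.5 and 51.9 CPM (0.87 ± 0.09, adjusted p = 2.46e-09). Havcr1, the injury molecule KIM-1, differed by -0.14 and did not pass (adjusted p = 0.75). The 12 higher members fell to 7 without NAM replicate 3 and SAM replicates 2 and 3. Secreted factors linked to senescence were higher in 9 of 21 and lower in 2 (median 0.47), among them Inhba, an activin subunit (0.93 ± 0.12, adjusted p = 1.39e-07), Igfbp7 (0.74 ± 0.10, adjusted p = 3.31e-07) and Ccl2, a monocyte chemokine (0.90 ± 0.14, adjusted p = 9.62e-06). Igfbp7 overlaps Polr2b on the other strand, so their reads may be shared. Of 22 NF-κB targets, 8 were higher and 2 lower (median 0.34), with Vcam1 at 0.53 ± 0.10, adjusted p = 0.000344 and Csf1 at 0.47 ± 0.08, adjusted p = 1.72e-05. The 8 became 4 without NAM replicate 3 or without SAM replicate 3, and 5 without SAM replicate 1.

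Of 20 tested senescence genes, 2 were higher and 3 lower in NAM (25% past the test, against 14.4% of all tested genes), with a median of -0.07, and the 2 became 0 without NAM replicate 3 or SAM replicate 3. Trp53, the p53 gene, was lower in NAM (-0.63 ± 0.14, adjusted p = 0.00148), as were the cell cycle inhibitor Cdkn2c (-0.66 ± 0.14, adjusted p = 0.000742) and the cyclin Ccnd2 (-0.45 ± 0.07, adjusted p = 5.97e-06). Of 32 p53 targets none was higher and 11 were lower, with a median of -0.22. Among them, Zmat3, an RNA-binding protein, stood at 403, 384 and 394 CPM in NAM and 503, 509.7 and 547 CPM in SAM (-0.40 ± 0.08, adjusted p = 0.000361), and the proapoptotic Bbc3 at 89.2, 99.7 and 95.4 CPM and 132, 138 and 132 CPM (-0.50 ± 0.11, adjusted p = 0.00133). Both had all SAM libraries above all NAM libraries, and both were chosen by their small p. This count depends on single libraries: it was 7 without NAM replicate 1, 6 without NAM replicate 3, 7 without SAM replicate 3 and 1 without SAM replicates 2 and 3. Proliferation genes passed in 4 of 39 (10.3%), 3 higher and 1 lower, and the 3 became 0 without SAM replicate 3.

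**Figure D3:**
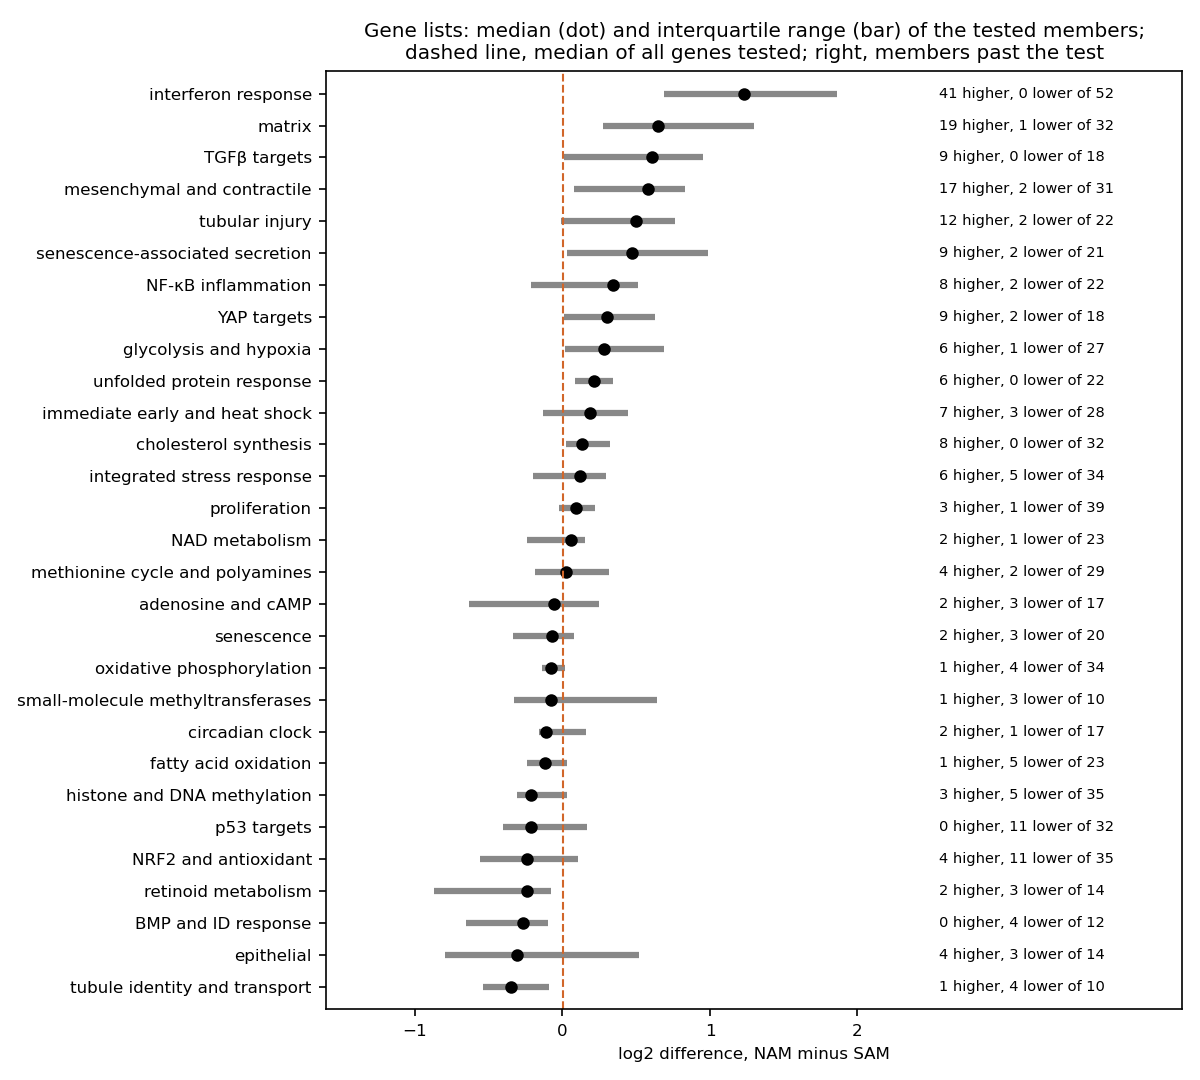
Median (dot) and interquartile range (bar) of the log2 difference, NAM minus SAM, over the tested members of each list with at least 5 of them, with the counts of members past the test at the right and the median of all tested genes as a dashed line. The interferon response lies farthest to the right at 1.23, followed by matrix, TGFβ targets and mesenchymal and contractile genes, and the tubule identity list lies farthest to the left at -0.35.

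By number, antioxidant genes and p53 targets were the lists with most members lower in NAM, 11 each of 35 and 32 tested. Lower genes made up 6.56% of all tested genes. Shorter lists had similar or larger shares, such as 4 of 10 tubule identity genes and 4 of 12 BMP and ID genes. NRF2 is the transcription factor that raises glutathione synthesis and detoxifying enzymes under oxidative or electrophilic stress. Of 35 tested genes of its list, 11 were lower and 4 higher in NAM, with a median of -0.24, and without SAM replicates 2 and 3 the 11 became 7. Gclc (ENSMUSG00000032350, chr9:77754535-77794485), the catalytic subunit of the rate-limiting enzyme of glutathione synthesis, stood at 183, 202 and 185 CPM in NAM, 467, 432 and 486 CPM in SAM and 224, 225 and 206 CPM in control. SAM was 2.43-fold above NAM (-1.28 ± 0.10, adjusted p = 1.13e-12). Its regulatory subunit Gclm stood at 305, 290.4 and 286 CPM in NAM, 626, 569.7 and 588 CPM in SAM and 398, 381 and 374 CPM in control (-1.02 ± 0.08, adjusted p = 4.43e-12). Both subunits were high in SAM, and all NAM libraries lay below all control libraries, by a difference that did not pass. The secreted glutathione peroxidase Gpx3 differed by -0.68 ± 0.08, adjusted p = 2.6e-08 and the ferritin heavy chain Fth1 by -0.64 ± 0.08, adjusted p = 1.83e-07. Heme oxygenase, Hmox1, was also lower in NAM (-1.48, adjusted p = 8.24e-05), whereas Txn1 (0.39), Prdx1 (0.35), Sod1 (0.26) and Gstm2 (0.71) were the 4 higher members, and Nqo1 did not pass (-0.90, adjusted p = 0.34). The core of the antioxidant response element, TGACNNNGC on either strand, occurred in 3 of 8 promoters of the lower members (37.5%). The share was 40.0% of all tested members with a promoter, 17.0% of all tested genes with a promoter and 14.0% of all genes. Among all genes past the test with a promoter, it was 16.0% of those lower and 18.6% of those higher in NAM. The match in Gclm is shown in capitals and lies on the opposite strand.
Gclm, chr3:122245408-122245446, plus strand, position -134: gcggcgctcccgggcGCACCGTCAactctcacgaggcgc

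Adh7 (ENSMUSG00000055301, chr3:138217760-138233382), an alcohol dehydrogenase that oxidizes retinol, was the gene with the smallest p among the 12 lowest in NAM. It stood at 264, 271 and 289 CPM in NAM, 1085, 1107 and 1095 CPM in SAM and 515, 458 and 469.7 CPM in control. SAM was 3.99-fold above NAM (-2.00 ± 0.10, adjusted p = 2.28e-18), and control lay between with no overlap on either side: NAM was below control by 0.81 (adjusted p = 5.16e-06) and SAM above it by 1.19 (adjusted p = 4.78e-12). In the retinoid list 2 of 14 genes were higher and 3 lower in NAM (median -0.24). That is 35.7% past the test, against 14.4% of all tested genes, and the 2 became 1 without any single library. Rdh10, which makes retinaldehyde, was higher (0.90 ± 0.14, adjusted p = 5.66e-06). The receptor Rarg differed by -0.53 ± 0.16, adjusted p = 0.0181, a call lost without NAM replicate 3 or SAM replicate 3. The retinoic acid carrier Crabp2 had no read in NAM, 23 reads in SAM and 8 in control. With the NAM group set at a limit of 3 counts, Crabp2 was 8.92-fold higher in SAM. That ratio leaves out the counting error of the 23 reads.

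The other genes lowest in NAM were scarcer. Mgp, an inhibitor of calcification, stood at 19.4, 23.6 and 19.7 CPM in NAM, 80.0, 90.5 and 97.9 CPM in SAM and 16.8, 19.3 and 17.4 CPM in control (-2.09 ± 0.23, adjusted p = 1.07e-08). Snord13, a small nucleolar RNA, stood at 15.8, 15.2 and 8.09 CPM and 43.3, 42.5 and 49.3 CPM (-1.79 ± 0.27, adjusted p = 4.36e-06), and Nectin4, a cell adhesion protein, at 5.37, 6.42 and 4.46 CPM and 15.3, 19.4 and 18.3 CPM (-1.70 ± 0.22, adjusted p = 2.09e-07). In each, the SAM libraries were the high ones and control lay nearer to NAM. Polyadenylated RNA was measured, and whether the Snord13 reads came from the mature small RNA was not tested. Dgat2, which makes triglyceride, stood at 3.92, 6.30 and 9.76 CPM in NAM and 25.8, 17.0 and 24.5 CPM in SAM (-1.75 ± 0.40, adjusted p = 0.00195). Notum, which inactivates Wnt proteins, stood at 3.19, 2.31 and 2.51 CPM and 12.5, 10.2 and 14.0 CPM (-2.18 ± 0.56, adjusted p = 0.00579). Islr2, Synm, Wscd2, Flrt1, Tprg and Igfbp5 had means of 2.43 to 5.17 CPM in NAM and 8.23 to 17.2 CPM in SAM, with differences from -1.63 to -2.31. The calls of Notum, Islr2 and Igfbp5 did not pass without SAM replicates 2 and 3. That of Tprg was lost without NAM replicate 1 or SAM replicate 2, and that of Wscd2 without any library but NAM replicate 1. Among the 12 highest, Spib, an ETS transcription factor, stood at 11.6, 13.2 and 10.5 CPM in NAM and 1.37, 1.88 and 1.38 CPM in SAM (2.92 ± 0.47, adjusted p = 1.44e-05). Upk3b, a uroplakin, stood at 15.7, 19.1 and 12.3 CPM and 1.67, 1.56 and 4.66 CPM (2.59 ± 0.39, adjusted p = 5.29e-06). Ccl17, a chemokine, stood at 24.4, 28.7 and 21.2 CPM and 6.38, 4.53 and 4.48 CPM (2.26 ± 0.21, adjusted p = 1.91e-10), and the antisense RNA Slc13a2os at 7.11, 10.3 and 11.3 CPM and 0.152, 1.56 and 0.345 CPM (3.75 ± 0.49, adjusted p = 3.72e-07).

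Tubule identity and transport genes were mixed. Of 10 tested, 1 was higher and 4 lower in NAM, with a median of -0.35. Lrp2, the endocytic receptor megalin, was higher at 101, 109 and 112 CPM against 60.3, 60.2 and 57.8 CPM (0.85 ± 0.12, adjusted p = 1.64e-06). Atp1b1, a subunit of the sodium pump, was lower at 1114, 1058 and 1021 CPM in NAM and 1463, 1461 and 1545 CPM in SAM (-0.49 ± 0.08, adjusted p = 2.51e-05). Pax2, a nephron transcription factor, was lower at -0.53 ± 0.13, adjusted p = 0.00248, a call lost without NAM replicate 3, when 2 members were lower. Among 14 epithelial genes 4 were higher and 3 lower (median -0.31), with the keratin Krt8 at 0.60 ± 0.11, adjusted p = 7.85e-05, the tight junction protein F11r at 0.54 ± 0.09, adjusted p = 3.84e-05 and claudin 1, Cldn1, at -0.68 ± 0.11, adjusted p = 1.94e-05.

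Of the metabolic and stress lists, oxidative phosphorylation had 14.7% of its tested members past the test, against 14.4% of all tested genes. The shares were 26.1% in fatty acid oxidation, 25.9% in glycolysis and hypoxia, 25% in cholesterol synthesis, 27.3% in the unfolded protein response, 32.4% in the integrated stress response and 35.7% in immediate early and heat shock genes. In fatty acid oxidation 1 of 23 was higher and 5 lower in NAM (median -0.12). The coactivator Ppargc1a, which drives mitochondrial genes, stood at 166, 142 and 156 CPM in NAM, 293, 289 and 329 CPM in SAM and 153, 156 and 178 CPM in control (-0.97 ± 0.11, adjusted p = 3.61e-08). Cpt1a, which brings fatty acids into mitochondria, differed by -0.63 ± 0.15, adjusted p = 0.00383 and Acadm by -0.59 ± 0.13, adjusted p = 0.00148. The 5 became 3 without NAM replicate 3 or without SAM replicate 2, and 2 without SAM replicates 2 and 3. In oxidative phosphorylation 1 of 34 was higher and 4 lower (median -0.08), among them Cox4i1 (-0.39 ± 0.09, adjusted p = 0.00109), and the 4 became 2 without NAM replicate 2 or 3 or SAM replicate 1 or 2. In glycolysis and hypoxia 6 of 27 were higher and 1 lower (median 0.28). Ldha, lactate dehydrogenase A, stood at 216, 223 and 233 CPM in NAM and 117, 118 and 115 CPM in SAM (0.94 ± 0.09, adjusted p = 7.96e-10), and the collagen hydroxylase P4ha1 and hexokinase Hk2 differed by 0.93 ± 0.10, adjusted p = 2.31e-09 and 0.74 ± 0.13, adjusted p = 5.92e-05. In cholesterol synthesis 8 of 32 were higher and none lower (median 0.13), with squalene epoxidase, Sqle, at 0.66 ± 0.11, adjusted p = 4.03e-05. That 8 became 5 without NAM replicate 3, 4 without SAM replicate 3 and 2 without SAM replicates 2 and 3.

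The unfolded protein response had 6 of 22 genes higher and none lower (median 0.22), led by the chaperones Hspa5 (0.65 ± 0.07, adjusted p = 8.63e-09) and Hsp90b1 (0.58 ± 0.08, adjusted p = 6.25e-07). The 6 became 2 without SAM replicates 2 and 3. The integrated stress response was split, with 6 of 34 higher and 5 lower (median 0.12), and 2 and 2 without SAM replicates 2 and 3. Phgdh, the first enzyme of serine synthesis, was higher in NAM at 46.6, 40.7 and 54.3 CPM against 19.0, 23.4 and 19.5 CPM (1.19 ± 0.18, adjusted p = 3.53e-06), whereas Stc2, a secreted glycoprotein, was lower at 88.8, 98.5 and 97.1 CPM against 176, 199 and 186 CPM (-0.98 ± 0.11, adjusted p = 2.26e-08). Of 28 immediate early and heat shock genes 7 were higher and 3 lower (median 0.19), with Dusp1, a MAP kinase phosphatase, at 0.66 ± 0.15, adjusted p = 0.00155 and Klf6 at -0.38 ± 0.09, adjusted p = 0.00196. Dusp1 overlaps Ergic1 on the other strand, so their reads may be shared. The 7 became 4 without NAM replicate 3 and 0 without SAM replicates 2 and 3. In the clock list 2 of 17 were higher and 1 lower (17.6% past the test), with Bhlhe40 at 0.79 ± 0.12, adjusted p = 4.43e-06. The calls of the core clock genes Arntl and Nr1d1 were each lost on leaving out most single libraries. In the adenosine and cAMP list 2 of 17 were higher and 3 lower (29.4% past the test, against 14.4% of all tested genes). The 3 became 0 without NAM replicate 1, and 1 without NAM replicate 3, SAM replicate 1 or SAM replicate 3. Nt5e, the ectonucleotidase CD73 that forms adenosine, was higher at 47.3, 37.3 and 48.5 CPM against 21.6, 20.9 and 23.6 CPM (1.01 ± 0.13, adjusted p = 1.9e-07).

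Markers of other cell types had few reads or none, with exceptions among immune and podocyte genes. Of 12 immune markers, 4 were tested and 2 were lower in NAM, Csf1r (-0.47 ± 0.13, adjusted p = 0.0108) and Cd68 (-0.89 ± 0.25, adjusted p = 0.0108). The call of Csf1r was lost without NAM replicate 3 or SAM replicate 1, and that of Cd68 without NAM replicate 1 or SAM replicate 3. The summed level of the 12 markers was 91.4 to 111 CPM in NAM, 134 to 149 in SAM and 122 to 125 in control. Ptprc, the leukocyte antigen CD45, had at most 2 reads in a group. Of 8 podocyte and 8 endothelial markers, 4 and 1 were tested and none passed, and Nphs1, Cdh5 and Kdr had no read. The summed level of the podocyte markers was 310 to 335 CPM in NAM and 274 to 323 in SAM. Most of it came from Synpo (means of 217 and 201 CPM) and Podxl (91.3 and 73.7 CPM). The part of the markers of other cell types in the results was not tested.

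The same 2 supplements were compared in cells that also received TGFβ, in 6 libraries that share none with those above. The skip in library numbers also lies between TGFβ with NAM and TGFβ with SAM. Separate preparation and SAM cannot be told apart here either, and an effect of preparation could recur in both comparisons. There, 602 genes (4.47%) were higher and 495 (3.68%) lower with NAM. Of the 1054 genes higher in NAM without TGFβ, 313 were higher there too, 5 were lower, and 911 (86.4%) had the same sign. Of the 883 lower genes, 252 were lower there too, 4 were higher, and 769 (87.1%) had the same sign, against 65.9% of all tested genes. The median difference went from 0.60 to 0.26 in the higher genes and from -0.56 to -0.30 in the lower ones, with the genes chosen by their values without TGFβ. The difference between the 2 differences passed its own test in 165 genes (1.23%). In 110 of them the difference was nearer to 0 with TGFβ and in 55 farther from it. The interaction was positive in 72 and negative in 93, and 53 and 140 when library totals replaced the scaling. Of those counts, 165 became 317 without replicate 1 of TGFβ with NAM and 60 without SAM replicates 2 and 3, and the 1097 genes of the comparison with TGFβ became 696 and 705 without replicate 1 or 2 of TGFβ with SAM.

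The interferon list had the larger median with TGFβ. All but 2 of the 52 tested members were higher with NAM there and none was lower, with a median of 1.68. Cxcl10 stood at 488, 424 and 435 CPM with TGFβ and NAM and 66.3, 63.5 and 77.3 CPM with TGFβ and SAM, after 425, 379 and 438 CPM with TGFβ alone. The log2 difference of 2.70 was that without TGFβ to within its error (interaction 0.03 ± 0.17, adjusted p = 0.97). Tap1, Ifit2 and Ifit3, below 0 without TGFβ, were at 0.44, 0.63 and 2.94 with it. Ifit3 and Ifit3b, which did not pass without TGFβ, passed with it and in the test of the interaction. Ifit3 stood at 150.3, 145 and 164 CPM with TGFβ and NAM and 15.2, 16.5 and 27.8 CPM with TGFβ and SAM (2.94, interaction 2.97 ± 0.19, adjusted p = 3.9e-14). In all, 15 members of the list passed the interaction test, 14 of them with a positive interaction, among them Stat2 (1.11) and Rsad2 (1.36), and 1, Ifi27, with a negative one (-0.58).

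The contractile, matrix and TGFβ target lists had smaller medians with TGFβ. Among the mesenchymal and contractile genes 8 were higher and 1 lower with NAM under TGFβ, with a median of 0.13, among matrix genes 8 and 5 with a median of 0.09, and among TGFβ targets 3 and 1 with a median of 0.16. Pmepa1 stood at 1034, 1184 and 1169 CPM with TGFβ and NAM and 1393, 1508 and 1159 CPM with TGFβ and SAM, libraries that overlap, and the interaction was -1.32 ± 0.13, adjusted p = 1.46e-09. Tnnt2 stood at 229.8, 255 and 243 CPM and 238, 292 and 255 CPM (interaction -2.54 ± 0.19, adjusted p = 1.91e-12). Postn turned: it stood at 219, 224 and 207 CPM with TGFβ and NAM and 376, 324 and 341 CPM with TGFβ and SAM, lower with NAM by 0.68 (interaction -1.94 ± 0.15, adjusted p = 1.91e-12). These levels were all above those without TGFβ, and the SAM libraries were no longer the low ones in Tnnt2 and Postn. Of the antioxidant list, 1 gene was higher and 5 were lower with NAM under TGFβ, with a median of -0.05. The interaction passed in 4 members, with 0 of them negative. Gclm (-0.40) and Fth1 (-0.02) were nearer to 0 than without TGFβ. Gclc kept its difference (-1.07), at 97.0, 104 and 112 CPM with TGFβ and NAM and 258, 207 and 193 CPM with TGFβ and SAM. Adh7 kept its direction at a smaller size (-0.92, interaction 1.08 ± 0.14, adjusted p = 2.72e-06). Nampt turned, at 78.2, 79.5 and 80.0 CPM with TGFβ and NAM and 65.0, 49.9 and 54.5 CPM with TGFβ and SAM (0.49, interaction 1.14 ± 0.16, adjusted p = 9.05e-06).

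**Figure D4:**
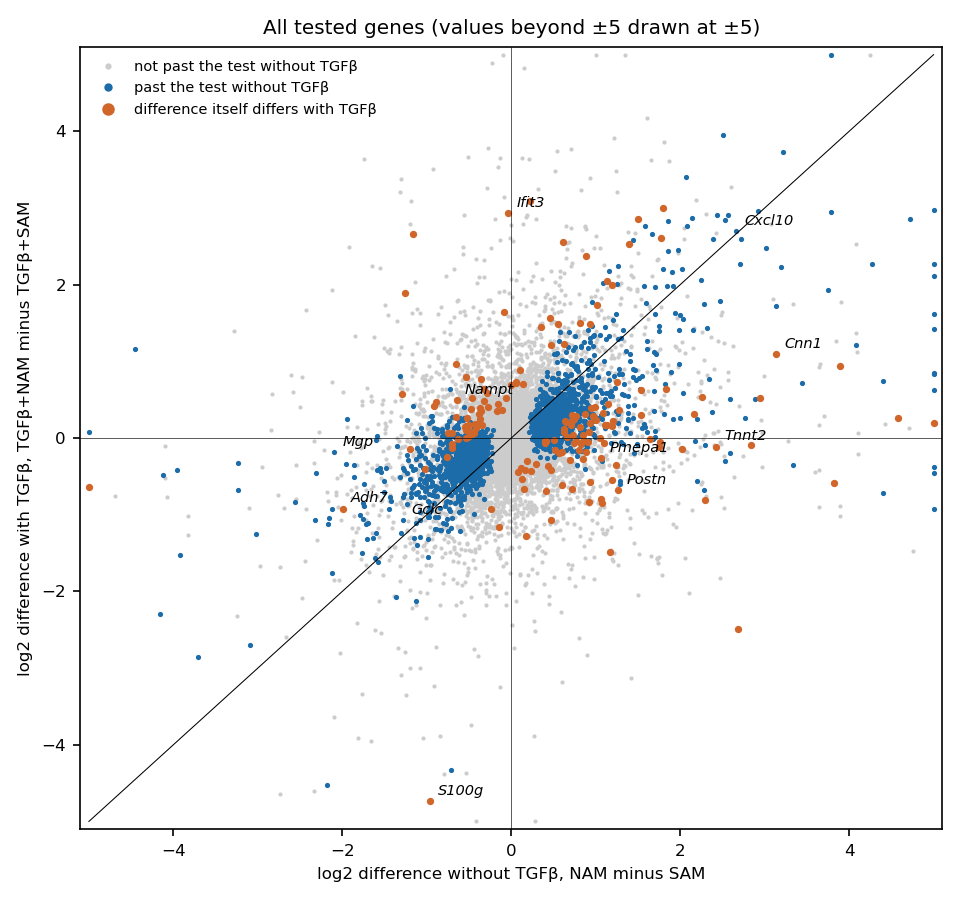
Log2 difference between NAM and SAM in cells without TGFβ (x axis) against that in cells with TGFβ (y axis) for 13469 tested genes, with genes past the test without TGFβ in blue, genes past the interaction test in orange and the line of equal differences. Cxcl10 lies near that line, Ifit3 near 0 on the x axis and at 2.94 on the y axis, and Tnnt2, Pmepa1 and Cnn1 lie below it on the right.

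**Figure D5:**
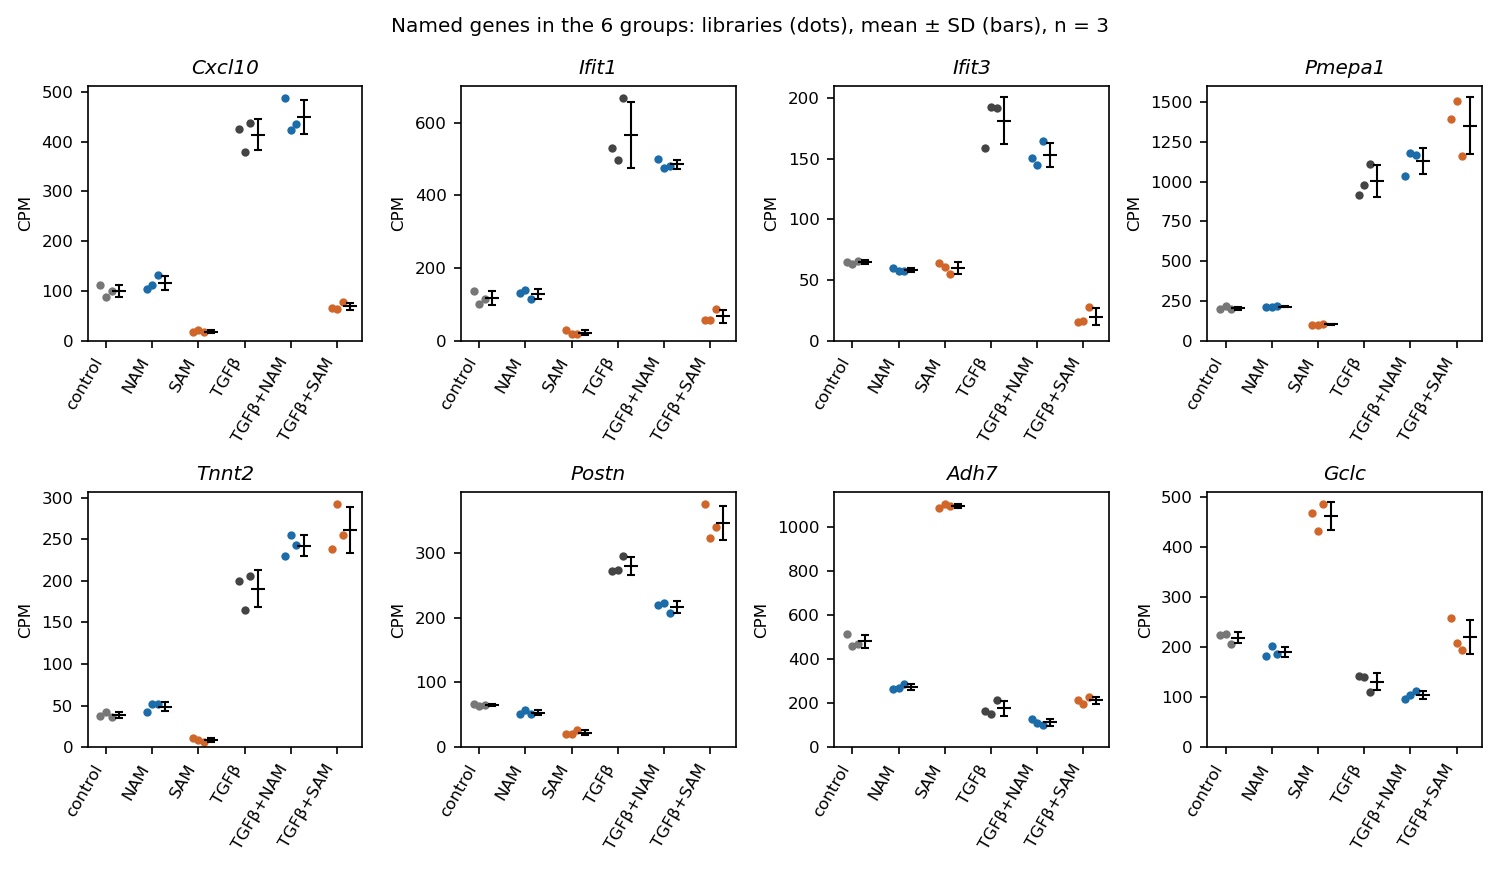
CPM of 8 genes in the 18 libraries, by group (dots), with mean ± SD (bars, n = 3). Cxcl10 and Ifit1 are low in both SAM groups, Ifit3 only in the group given TGFβ and SAM, and Adh7 and Gclc are highest in SAM without TGFβ.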

How the data were processed

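Polyadenylated RNA of 18 im-TEC libraries was measured by QuantSeq 3′ mRNA sequencing, with 3 libraries in each of 6 groups taken from the sample titles. The deposited table holds raw counts of reads per gene. STAR and HTSeq were used per the submitters' processing notes, which give no version and name GRCh38, although all 55487 gene rows carry mouse identifiers. Strandedness of the counting: not given in the sources used here. A symbol was found for 55141 identifiers in GENCODE M21 (GRCm38), which may differ from the annotation counted. Reads outside genes (22.8% to 28.2% of a library) and ambiguous reads (0.607% to 0.779%) were left out, in 5 special rows. Reads in genes ran from 4171170 to 7717626 per library, and nothing in the labels says that repeated reads were removed, so limits from counts cover counting error only.

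The counts were fitted with edgeR 4.0.16 in R 4.3.3 (TMM scaling, filterByExpr with a minimum count of 10, 1 quasi-likelihood fit of 18 libraries), and two-sided p-values were adjusted by Benjamini-Hochberg over all tested genes. A difference passed at an adjusted p under 0.05. The comparison and the lists were chosen with earlier results of these data known, so list counts and medians are descriptions. Named genes were Nnmt, up to 12 higher and 12 lower genes by log2 difference with a mean of at least 5 CPM and no overlap of the libraries, up to 4 members of each list with the smallest p, and up to 5 genes each way of the interaction. Other members were named beside them after their values were seen, and some items are not reported here. Promoters came from RefSeq (GRCm38.p6). Alternatives were DESeq2 1.42.0, other scalings and filters, a replicate block, fewer libraries in the fit, and single libraries or doubted libraries left out.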

Additional observations from a re-analysis of the deposited data

Results flagged for a closer look

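Among the named genes described here, 34 had a difference between NAM and SAM that itself differed between cells with and without TGFβ (edgeR's interaction test, adjusted p under 0.05). Values are log2 interactions, with negative ones for a NAM value that was relatively lower once TGFβ was present. Matrix genes had Loxl2 -2.42, Col4a4 -2.93, Loxl1 -0.52, Postn -1.94 and Fstl1 -0.95. The values of Loxl2 and Col4a4 rest on 6 and 16 reads in the SAM libraries, and Loxl2 passed the interaction test narrowly (adjusted p = 0.0477). Contractile and calcium-binding cytoskeletal genes had Cnn1 -2.04, Tnnt2 -2.54, Acta2 -1.17, S100a6 -0.42 and Anxa2 -0.48. TGFβ targets and the activin subunit had Ccn2 -0.91, Ccn1 -0.42, Pmepa1 -1.32 and Inhba -1.50. Metabolic, tubular and injury genes had Ldha -0.55, P4ha1 -0.73, Nt5e -0.77, Clu -0.56, Lrp2 -0.81 and Krt8 -0.79. The 2 secreted immune factors were Ccl17 at -1.72 and Tnfsf15 at -6.96. Tnfsf15, a cytokine of the tumour necrosis factor family, had 62 reads in the NAM libraries, 45 in control and 0 in SAM. With the SAM group set at a limit of 3 counts, it was 17.8-fold higher in NAM. That ratio leaves out the counting error of the 62 reads, and the fitted interaction of Tnfsf15 depends on the empty SAM group.

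Positive interactions were found in interferon-induced genes, with Rnf213 1.49, Ddx60 1.95, Ifit3 2.97 and Ifit3b 2.87. Ddx60 did not pass without TGFβ (0.61, adjusted p = 0.0944) and differed by 2.56 with it. Genes lower in NAM without TGFβ and nearer to 0 with it were Adh7 1.08, Gclm 0.62 and Fth1 0.62. Bbc3 0.67 and Klf6 0.57, also lower without TGFβ, had values of 0.17 and 0.18 with it that did not pass, and Nampt, at 1.14, turned from lower to higher. Atf3, a stress-induced transcription factor, differed by -0.08 without TGFβ and 1.64 with it (1.72). S100g, the calcium-binding protein calbindin-D9k, went the other way, from -0.96 to -4.74 (-3.78). It stood at 1.42, 0.801 and 0.359 CPM with TGFβ and NAM and at 21.1, 20.2 and 29.0 CPM with TGFβ and SAM, and it overlaps Ctps2.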

How the results depend on the processing

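The 1937 genes that differed between NAM and SAM became 639 without SAM replicates 2 and 3, 449 without these and NAM replicate 3 (chosen after seeing the data), and 1272 to 1646 with single libraries left out, lowest without NAM replicate 3. With TGFβ, the 1097 genes became 667 in a fit of those 6 libraries alone and 696 to 1192 with single libraries left out, lowest without replicates 1 and 2 of TGFβ with SAM (696 and 705). The 165 interaction genes became 265 with DESeq2, 249 without the low-count filter, 60 without SAM replicates 2 and 3, 44 without these and NAM replicate 3, and 119 to 317 with single libraries left out, highest without replicate 1 of TGFβ with NAM. The cause was not tested, but fewer libraries were left in several of these fits. The other alternatives kept the 3 counts within 1.5 times.

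With a replicate block the counts were 1907, 1080 and 157. NAM and SAM libraries of the same number correlated by -0.025 to 0.016 in their deviations from group means (3 pairs). Those of other numbers correlated by -0.017 to 0.031 (6 pairs). These few pairs showed no sign that the numbers pair the samples, and they cannot exclude it. With library totals the split of the 1937 genes, 1054 higher and 883 lower, became 1237 and 728, and the median of all genes 0.04.

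Of the 136 named genes past the test, none changed direction in any alternative. The call was lost in 46 without SAM replicates 2 and 3, in 57 without these and NAM replicate 3, in 6 to 16 with 1 library left out, and in at most 2 under other scalings, filters, tools or the block. In the first 100 bases before the start site the ISRE core was found in 41.4% of the interferon genes higher in NAM and 1.14% of all genes.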

Other observations

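H2-Eb1, a β chain of class II antigen presentation (ENSMUSG00000060586, chr17:34305867-34316674), went against the interferon genes. It was chosen after its values were seen. It stood at 106, 134 and 113 CPM in NAM, 278, 293 and 302 CPM in SAM and 135, 113 and 131 CPM in control. The SAM libraries were the high ones by edgeR's test (-1.30 ± 0.10, adjusted p = 1.55e-12), and with TGFβ the difference was -1.24 (adjusted p = 2.6e-11). Its partners in class II presentation did not pass: H2-Aa differed by -0.03, H2-Ab1 by -0.07, the invariant chain Cd74 by 0.27 and the class II transactivator Ciita by -0.82 (adjusted p = 0.57).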
